A study of Homo sapiens with 8 samples.

Results

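The genes of cholesterol synthesis, uptake and efflux were described in A375 cells, a line established from a human melanoma, after removal of serum. The 35 genes were chosen by symbol from a list, and all 35 were found among the 58051 genes of the count files. They were divided by role into 19 synthesis enzymes, 5 genes that control the SREBP transcription factors, 5 genes of cholesterol uptake and trafficking, and 6 genes of the LXR efflux pathway.

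RNA was sequenced from 4 lines labelled WT1 to WT4, each grown from a single cell of A375. WT stands in the study for wild-type *NECTIN1*, a cell adhesion gene, and all 8 libraries share this genotype. Each line was kept for 12 h in DMEM medium with 10% fetal bovine serum (FBS) or in the same medium alone. This gave 8 libraries, 4 for each condition. The libraries held 29759279 to 67101005 counts on genes with serum and 37847737 to 73341551 without. Each line is 1 clone, with 1 library per condition, so that the p-values measure the spread between clones of 1 cell line and not between cell lines. The libraries labelled WT4 carry another line name in the deposited counts, and their identity rests on the labels. Reads that aligned to more than 1 place made up 22.7% and 16.8% of the reads in WT1 and WT2 with serum and 5.73% to 10.1% in the other 6 libraries. Reads set aside as ambiguous between genes made up 8.23% to 11.5%. Reads on no gene were recorded as 0 in all 8 libraries. Of the melanocyte markers, *SOX10* was at 0 in all 8 libraries and *TYR* at no more than 0.052 CPM (counts scaled to 1000000 per library), *PMEL*, *MLANA* and *DCT* reached at most 0.943, 1.44 and 2.90 CPM, and *MITF* stood at 30.1 to 44.2 CPM. Exons of *SOX10* overlap *POLR2F* on the other strand over 5.39% of their length. The part of reads set aside in counting in the 0 of *SOX10* was not tested. Of the markers of undifferentiated melanoma, *AXL* stood at 309 to 656 CPM, *NGFR* at 24.1 to 199 CPM, *EGFR* at 8.98 to 36.3 CPM and *SOX9* at no more than 0.64 CPM. Among markers of other cell types, *KRT14* was at 11.6 to 21.0 CPM, *LUM* at 2.53 to 7.10, *DCN* at 0.282 to 3.95 and *COL1A1* at 0.634 to 2.25, while *PTPRC* and *KRT1* were at or near 0. *CDH5* reached at most 1.33 CPM, *KRT5* 1.28, *CD14* 0.853, *COL1A2* 0.164 and *CD3E* 0.027. The endothelial marker *PECAM1* was not found by its symbol. Without serum *PDGFRA* rose, from 0.491 to 0.951 CPM to 1.39 to 4.03 CPM (log2 fold change 1.77, edgeR adjusted p = 0.00767), and *MITF* fell (-0.28, adjusted p = 0.0496). With the clonal line as a block, *DCN* was also higher (0.90, adjusted p = 0.0125) and *AXL* (-0.35, adjusted p = 0.000588) and *DCT* (-0.89, adjusted p = 0.0251) were lower, and the other markers tested did not pass. The part of such cells in the results was not tested.

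Cells make cholesterol from acetyl-CoA through mevalonate, squalene and lanosterol, or take it up in lipoproteins from serum. The precursor proteins of the SREBP transcription factors are carried by SCAP from the endoplasmic reticulum to the Golgi when membrane sterol is low, where they are cut and released to switch on the synthesis genes, and the INSIG proteins hold SCAP back when sterol is plentiful. Liver X receptors (LXR) work at the other end: they bind oxysterols, which accumulate with excess cholesterol, and switch on transporters that export it.

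With serum removed, 10 of the 35 genes rose and 4 fell in edgeR's quasi-likelihood test (Benjamini-Hochberg adjusted p under 0.05 over 17671 tested genes), and the other 21 did not pass. The genes that rose were *INSIG1*, *SREBF2*, *STARD4*, *NR1H3*, *TM7SF2*, *FDFT1*, *DHCR7*, *MVK*, *MVD* and *ABCG1*, and those that fell were *EBP*, *ACAT2*, *SOAT1* and *LBR*. Over all tested genes, 11.1% rose and 14% fell in the same test. Without a block, the share of the 35 genes that fell was thus close to that of all genes, and the share that rose was above it. The 35 genes were chosen with earlier results of these data known, so these shares are a description and not a test. With the clonal line as a block, which compares the conditions within each line, 19 of the 35 genes rose and 4 fell, beside 23.2% and 22.4% of all tested genes. The share that fell was then below that of all genes. The groups did not overlap, with all 4 serum-free libraries above or all 4 below the serum libraries, for 10 genes that were higher and 4 that were lower, beside 12.6% and 15% of all tested genes. Of the 35 genes, 20 were higher without serum in each of the 4 lines and 4 were lower in each, beside 28.8% and 26.6% of all tested genes. The median log2 fold change was 0.19 over the 35 genes and 0.033 over all tested genes.

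**Figure D1:**
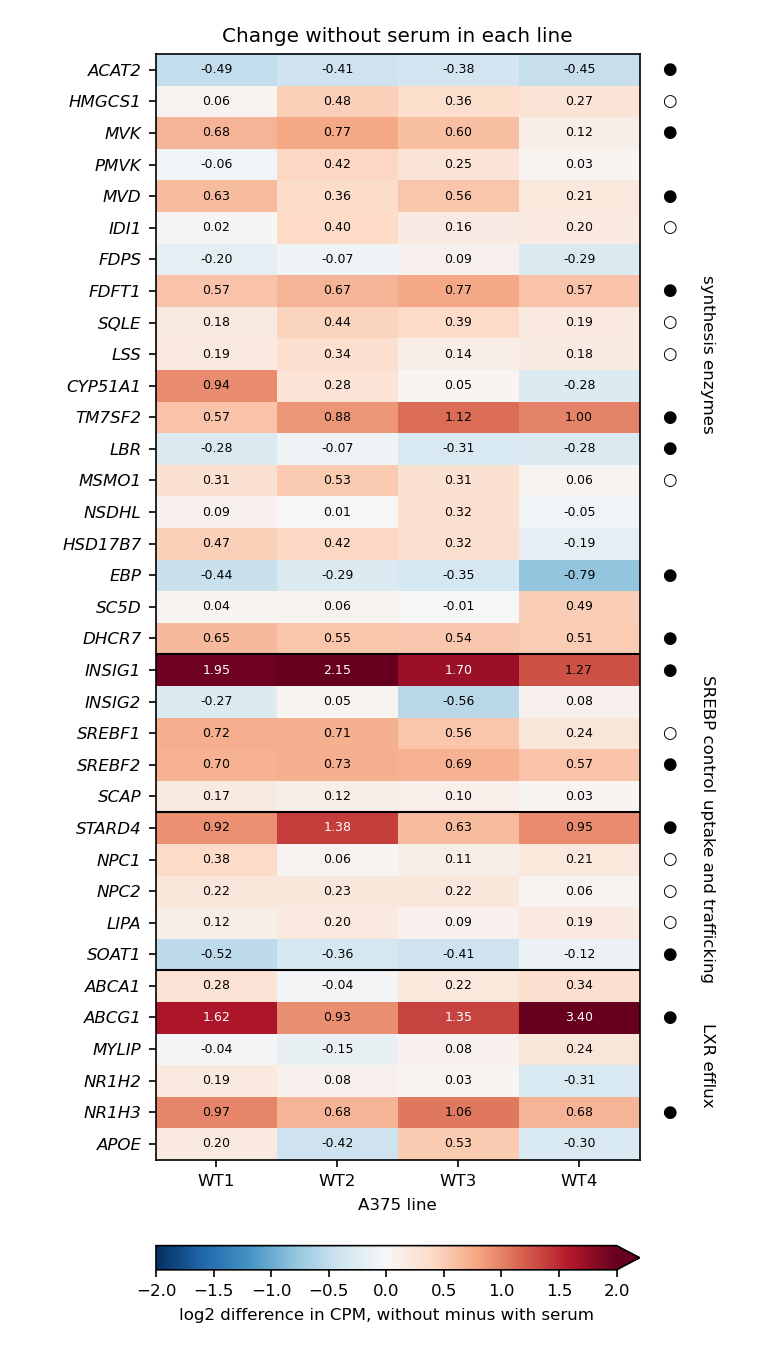
Log2 difference in CPM, without minus with serum, for the 35 genes (rows) in each of the 4 A375 lines (columns), grouped by role, with red for higher and blue for lower without serum. Filled circles mark the 14 genes that passed the test without a block and open circles the 9 that passed only with the line as a block; *INSIG1* is red in every line and *ACAT2* and *EBP* are blue in every line.

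By role, 5 of the 19 synthesis enzymes rose and 3 fell, 2 of the 5 SREBP control genes rose, 1 of the 5 uptake and trafficking genes rose and 1 fell, and 2 of the 6 LXR genes rose, beside 11.1% of all tested genes that rose and 14% that fell. With the block these counts became 10 and 3 for synthesis, 3 for SREBP control, 4 and 1 for uptake and trafficking, and 2 for LXR, beside 23.2% and 22.4%. The median log2 fold change was 0.21 in the synthesis enzymes, 0.53 in the SREBP control genes, 0.18 in uptake and trafficking and 0.15 in the LXR genes. Line by line, the median over the 35 genes was 0.20, 0.34, 0.25 and 0.19 in WT1 to WT4, each above the median of all tested genes in that line, which ran from 0.016 to 0.044.

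**Figure D2:**
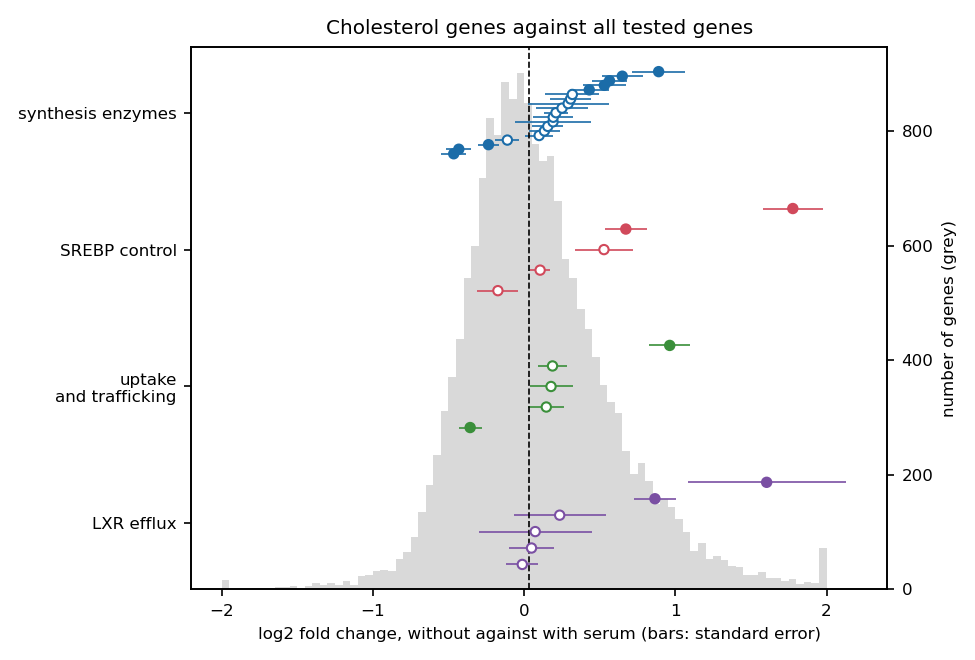
Log2 fold change without against with serum for the 35 genes by role (points, bars are standard errors, filled points passed the test without a block) over the distribution of all 17671 tested genes (grey, right axis, genes beyond the plotted range are counted in the end bars). The dashed line is the median of all genes, 0.033, and *INSIG1* and *ABCG1* lie in the far right tail.

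The stretches of DNA before the starts of 4 genes are shown for what they share: 3 genes that rose, *SREBF2*, *INSIG1* and *STARD4*, and 1 synthesis gene that fell, *EBP*. Each is the 250 bases before the RefSeq start in GRCh38.p14, at chr22:41832855-41833104 on the plus strand for *SREBF2*, chr7:155297628-155297877 on the plus strand for *INSIG1*, chr5:111512536-111512785 on the minus strand for *STARD4* and chrX:48521558-48521807 on the plus strand for *EBP*, written 5′ to 3′ along the gene. Capitals mark matches on either strand to the core of the sterol regulatory element (TCACNCCAC), the CCAAT box (CCAAT, or ATTGG where it lies on the other strand) and the GC box (GGGCGG, or CCGCCC).
SREBF2: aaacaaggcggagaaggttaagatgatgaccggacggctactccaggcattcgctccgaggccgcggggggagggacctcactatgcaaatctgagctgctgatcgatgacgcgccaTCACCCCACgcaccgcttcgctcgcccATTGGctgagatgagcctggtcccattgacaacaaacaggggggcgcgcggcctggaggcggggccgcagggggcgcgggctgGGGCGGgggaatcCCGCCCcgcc
INSIG1: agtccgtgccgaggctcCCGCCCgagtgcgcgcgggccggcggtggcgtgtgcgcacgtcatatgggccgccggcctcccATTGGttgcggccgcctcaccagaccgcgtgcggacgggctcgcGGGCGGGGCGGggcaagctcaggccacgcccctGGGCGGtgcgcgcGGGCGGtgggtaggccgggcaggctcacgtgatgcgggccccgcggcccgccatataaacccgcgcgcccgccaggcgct
STARD4: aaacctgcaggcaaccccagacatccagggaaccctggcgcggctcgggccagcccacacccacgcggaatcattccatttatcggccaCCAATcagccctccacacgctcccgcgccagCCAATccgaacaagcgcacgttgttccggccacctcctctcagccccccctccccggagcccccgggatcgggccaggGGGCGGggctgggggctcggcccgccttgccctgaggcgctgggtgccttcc
EBP: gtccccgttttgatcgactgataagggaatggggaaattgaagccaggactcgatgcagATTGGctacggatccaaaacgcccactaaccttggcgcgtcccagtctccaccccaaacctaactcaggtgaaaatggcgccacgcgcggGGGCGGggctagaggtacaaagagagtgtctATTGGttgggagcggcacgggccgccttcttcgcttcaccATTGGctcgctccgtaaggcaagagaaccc
The *SREBF2* stretch held 1 sterol regulatory element core, 133 bases before the start, with a CCAAT box 106 bases before the start and 2 GC boxes. *INSIG1* held 1 CCAAT box and 5 GC boxes, of which 1 pair overlapped by a base. *STARD4* held 2 CCAAT boxes and 1 GC box, and *EBP*, which fell, held 3 CCAAT boxes and 1 GC box. RefSeq windows around the start were at hand for 31 of the 35 genes, and *FDFT1*, *SQLE*, *ABCG1* and *ACAT2* were not searched. Some genes hold several windows, 45 in all. The letters of the sterol regulatory element core were found in 1 of the 45 windows, that of *SREBF2*, beside 1.13% of all 35116 windows. An element that differs from these exact letters would not be found. A CCAAT box was found in 26 of the 45 windows and a GC box in 37, beside 34.6% and 45% of all windows. These matches are letters in a window and not sites shown to be bound.

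Among the genes of SREBP control, *INSIG1* showed the highest rise of the 35 genes in the fit over all 8 libraries. In WT4 alone *ABCG1*, which had few counts, rose more, by 3.40 on the log2 scale. With a library or line left out *ABCG1* reached 2.25, above the highest value of *INSIG1*, 1.93. *INSIG1*, which encodes a protein that retains SCAP and is itself a target of SREBP, had 11.9, 12.1, 18.7 and 14.6 CPM in WT1 to WT4 with serum and 46.2, 54.0, 60.9 and 35.1 CPM without. Every serum-free library stood well above every serum library, at 3.43-fold in the fit (log2 fold change 1.78, SE 0.20, edgeR adjusted p = 0.00114, n = 4 per condition). The rise was 1.95, 2.15, 1.70 and 1.27 on the log2 scale in WT1 to WT4, lowest in WT4. Its log2 fold change stood at the 99.4th percentile of all tested genes. *INSIG2*, which encodes a protein of the same function, did not pass the test, with 9.12, 7.44, 8.88 and 7.29 CPM with serum and 7.56, 7.72, 6.01 and 7.71 CPM without (log2 fold change -0.17, SE 0.14, adjusted p = 0.38). It was lower without serum in WT1 and WT3 and slightly higher in WT2 and WT4. Within a library the ratio of *INSIG1* to *INSIG2* counts was 1.31 to 2.10 with serum and 4.56 to 10.1 without.

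The genes of both SREBP proteins were higher without serum in all 4 lines. *SREBF2*, whose product acts mainly on cholesterol synthesis genes, had 56.8, 57.4, 79.1 and 63.0 CPM with serum and 92.2, 95.5, 128 and 93.2 CPM without. The groups did not overlap, WT3 was the highest line in both conditions, and the gene rose 1.59-fold (log2 fold change 0.67, SE 0.14, adjusted p = 0.00767). *SREBF1*, whose products act more on fatty acid synthesis, had 87.4, 102, 129 and 165 CPM with serum and 144, 167, 189 and 195 CPM without. Here WT4 with serum exceeded WT1 without, so that the groups overlapped. The test without a block was not passed (log2 fold change 0.53, SE 0.19, edgeR adjusted p = 0.075). DESeq2 without a block did call it (adjusted p = 0.0309). Compared within lines the gene rose (0.56, SE 0.073, adjusted p = 2.43e-05 with the block), by 0.72, 0.71, 0.56 and 0.24 in WT1 to WT4. With GC correction added to the block its log2 fold change was 0.32. The ratio of *SREBF1* to *SREBF2* counts was 1.54 to 2.61 with serum and 1.48 to 2.09 without, with WT4 highest in both conditions. *SCAP*, the sterol-sensing escort of SREBP, ranged from 131 to 151 CPM with serum and from 142 to 155 CPM without, and passed neither test (log2 fold change 0.11, SE 0.066, adjusted p = 0.27, and 0.11 with the block).

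**Figure D3:**
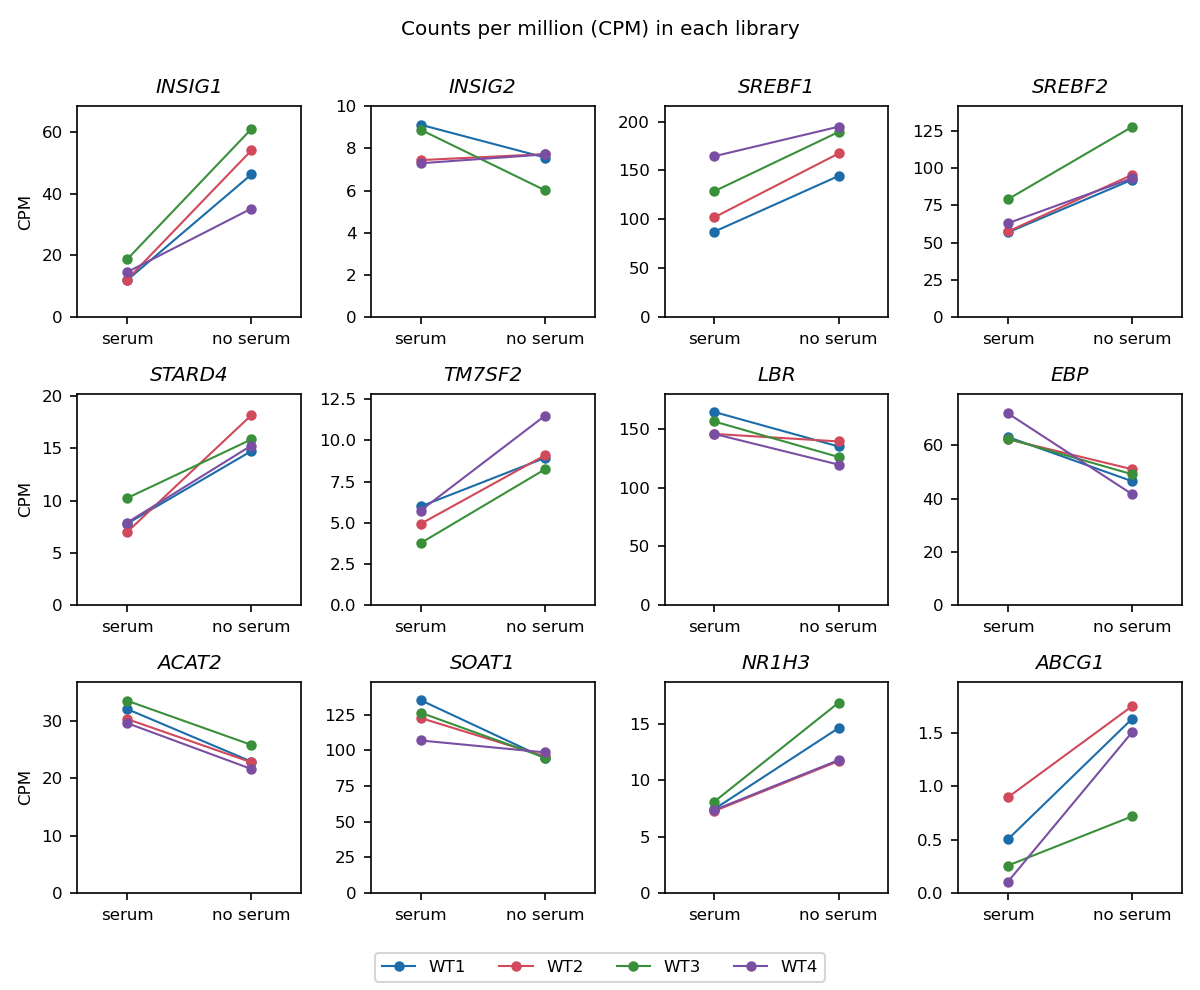
CPM in each library for 12 of the 35 genes, with serum (left) and without (right), where a line joins the 2 libraries of a clonal line and the axes start at 0. *INSIG1* climbs steeply in every line while *INSIG2* stays at 6.01 to 9.12 CPM, *EBP* and *ACAT2* descend in every line, and *SREBF1* climbs in every line from unequal starting levels.

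In the steps up to farnesyl diphosphate, *ACAT2* fell, *MVK* and *MVD* rose, and *HMGCS1*, *PMVK*, *IDI1* and *FDPS* did not pass without the block. *ACAT2*, the cytosolic thiolase that joins acetyl-CoA units, had 32.0, 30.3, 33.5 and 29.6 CPM with serum and 22.9, 22.8, 25.8 and 21.6 CPM without. All serum-free libraries lay below all serum libraries, at a log2 fold change of -0.43 (SE 0.081, adjusted p = 0.00554). Of the exons of *ACAT2*, 17.2% of the length overlaps *TCP1* on the other strand, and the strand setting of the counts is not given in the sources used here. *MVK*, mevalonate kinase, had 12.8, 11.8, 15.9 and 18.0 CPM with serum and 20.5, 20.1, 24.2 and 19.5 CPM without. It rose in the fit (log2 fold change 0.53, SE 0.14, adjusted p = 0.0229), though by 0.12 in WT4 against 0.60 to 0.77 in the other lines, and it passed in only 5 of 12 fits that left out 1 library or 1 line. *MVD*, mevalonate diphosphate decarboxylase, had 8.72, 10.9, 10.7 and 13.0 CPM with serum and 13.5, 14.0, 15.7 and 15.1 CPM without (log2 fold change 0.43, SE 0.13, adjusted p = 0.0336). Its groups did not overlap, but it passed in 2 of the 12 fits and did not pass once the fit with the block was corrected for GC content (0.19, adjusted p = 0.062). *PMVK*, the kinase between them, had 22.2 to 29.5 CPM with serum and 27.2 to 32.8 CPM without and did not pass (log2 fold change 0.16, adjusted p = 0.30).

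*HMGCS1*, which makes HMG-CoA and is a well known SREBP target, passed only when lines were compared with themselves. Its level was 40.7, 33.5, 40.6 and 20.9 CPM with serum and 42.5, 46.8, 52.0 and 25.2 CPM without. WT4 was far below the other lines in both conditions, and the groups overlapped (log2 fold change 0.29, SE 0.27, adjusted p = 0.47). With a library or line left out, this log2 fold change ran from 0.12 to 0.48. With the block the gene rose (0.29, SE 0.073, adjusted p = 0.00416), by 0.061 in WT1 and 0.27 to 0.48 in the other 3 lines. *IDI1*, the isomerase of the isoprene unit, also passed only with the block, at 21.9 to 31.1 CPM with serum and 25.2 to 34.1 CPM without (0.20, SE 0.074, adjusted p = 0.0398). *FDPS*, which makes farnesyl diphosphate, had 38.4 to 41.3 CPM with serum and 33.7 to 41.0 CPM without and did not pass with or without the block (log2 fold change -0.11, adjusted p = 0.34 without it and 0.21 with it), but was lower with the block and GC correction together (-0.24, adjusted p = 0.00254). Exons overlap another gene on the other strand over 37.7% of the length in *HMGCS1*, 15.0% in *IDI1* and 18.6% in *FDPS*, and *FDPS* has 8 and *IDI1* 3 pseudogenes, so that these values are uncertain.

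The step that commits farnesyl diphosphate to sterols rose. *FDFT1*, squalene synthase, had 58.6, 50.5, 66.4 and 71.1 CPM with serum and 87.0, 80.5, 113 and 106 CPM without. No serum-free library came as low as any serum library, and the gene was 1.57-fold higher (log2 fold change 0.65, SE 0.13, adjusted p = 0.00828), with 0.57 to 0.77 in the 4 lines. *SQLE*, squalene epoxidase, had 39.4, 35.5, 44.3 and 32.8 CPM with serum and 44.7, 48.2, 58.0 and 37.3 CPM without. Its groups overlapped, WT4 was lowest in both conditions, and it passed only with the block (0.30, SE 0.066, adjusted p = 0.00178, against 0.13 without). *LSS*, lanosterol synthase, had 33.8 to 39.6 CPM with serum and 39.7 to 45.0 CPM without, ranges that did not overlap but nearly touched. It passed with the block (0.21, SE 0.063, adjusted p = 0.012, against 0.078 without) but not with the block and GC correction together (0.056, adjusted p = 0.45).

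After lanosterol, the enzymes moved in both directions. *TM7SF2* and *LBR* encode enzymes that reduce the same sterol intermediate, and LBR is also a receptor for lamin B in the inner nuclear membrane. *TM7SF2* had 5.99, 4.93, 3.76 and 5.74 CPM with serum and 8.94, 9.10, 8.25 and 11.5 CPM without, a 1.85-fold rise with no overlap (log2 fold change 0.89, SE 0.17, adjusted p = 0.00648). *LBR* had 165, 146, 157 and 146 CPM with serum and 135, 140, 126 and 120 CPM without (log2 fold change -0.24, SE 0.072, adjusted p = 0.0386). Its groups did not overlap, yet it fell by only 0.065 in WT2, passed in 3 of the 12 fits with a library or line left out, and with block and GC correction its log2 fold change was -0.015 (adjusted p = 0.83). The ratio of *TM7SF2* to *LBR* counts was 0.024 to 0.039 with serum and 0.065 to 0.096 without.

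*CYP51A1*, the demethylase that acts on lanosterol, had low counts, at 2.09, 2.57, 3.48 and 4.83 CPM with serum and 4.05, 3.13, 3.60 and 3.98 CPM without. The lines disagreed, from a difference of 0.94 in WT1 to -0.28 in WT4, and the gene passed neither test (log2 fold change 0.19, SE 0.25, adjusted p = 0.62). Of the enzymes that remove the next methyl groups, *MSMO1* passed with the block (0.31, SE 0.088, adjusted p = 0.00986), from 12.1 to 17.7 CPM with serum to 12.6 to 22.0 CPM without and with WT4 lowest in both. *NSDHL* had 21.9 to 23.2 CPM with serum and 22.1 to 28.3 CPM without, and *HSD17B7* had 9.42 to 14.4 CPM with serum and 12.4 to 18.0 CPM without. Neither passed a test with or without the block, at adjusted p = 0.47 and 0.31 without it, while *HSD17B7* passed with the block and GC correction together (0.39, adjusted p = 0.00845). *CYP51A1* has 3 pseudogenes and *HSD17B7* 2, with 52 and 88 counts over all libraries, so that both are uncertain.

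In the last steps *EBP* fell and *DHCR7* rose. *EBP*, the sterol isomerase, had 63.2, 62.3, 62.6 and 72.1 CPM with serum and 46.5, 51.1, 49.1 and 41.6 CPM without. All serum-free libraries were lower than all serum libraries, and WT4 went from the highest line with serum to the lowest without (log2 fold change -0.47, SE 0.083, adjusted p = 0.00432). The fall was -0.79 in WT4 and -0.29 to -0.44 in the other lines, and the log2 fold change ran from -0.53 to -0.36 with a library or line left out. *DHCR7*, a reductase of the final steps, had 26.0, 23.1, 30.0 and 30.2 CPM with serum and 40.9, 33.9, 43.8 and 43.1 CPM without. It rose by 0.51 to 0.65 in the 4 lines, with no overlap (log2 fold change 0.56, SE 0.11, adjusted p = 0.00715). *SC5D*, the desaturase before it, had 22.7, 22.3, 21.6 and 17.1 CPM with serum and 23.3, 23.2, 21.5 and 24.0 CPM without. The 4 serum-free values lay close together, 1 line (WT4) differed by 0.49 and the others by -0.0075 to 0.056, and the gene did not pass with or without the block (log2 fold change 0.13, adjusted p = 0.36 without it). With the block and GC correction together it was higher (0.38, adjusted p = 0.0003).

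In uptake and trafficking, *STARD4* rose and *SOAT1* fell. *STARD4*, a cytosolic carrier of cholesterol between membranes, had 7.79, 6.98, 10.2 and 7.89 CPM with serum and 14.8, 18.2, 15.9 and 15.3 CPM without. Every serum-free library lay above every serum library, and the level rose 1.95-fold (log2 fold change 0.96, SE 0.14, adjusted p = 0.00196), from 0.63 in WT3 to 1.38 in WT2. *SOAT1*, which esterifies cholesterol for storage in droplets, had 135, 123, 127 and 107 CPM with serum and 94.6, 95.9, 95.0 and 98.6 CPM without. The serum-free libraries were nearly equal and all lower than any serum library (log2 fold change -0.36, SE 0.076, adjusted p = 0.00902), and the fall was smallest in WT4, at -0.12. With the block its log2 fold change was -0.35, and with GC correction added -0.18. The genes that release cholesterol from lysosomes passed only with the block: *NPC1* and *NPC2*, which carry it out of the lysosome, and *LIPA*, which frees it from lipoprotein esters. *NPC1* had 49.9 to 65.6 CPM with serum and 62.0 to 75.8 CPM without (0.19, SE 0.064, adjusted p = 0.0262 with the block). *NPC2* had 33.8 to 51.4 and 39.6 to 53.7 CPM (0.18, SE 0.061, adjusted p = 0.0234), and *LIPA* 38.6 to 53.8 and 44.1 to 57.3 CPM (0.15, SE 0.059, adjusted p = 0.0491). All 3 were higher without serum in each of the 4 lines, by at most 0.38 on the log2 scale. The ratio of *NPC1* to *NPC2* counts was 1.10 to 1.76 with serum and 1.23 to 1.57 without.

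In the LXR pathway 1 of the receptors rose and the other did not pass. *NR1H3*, which encodes LXR alpha, had 7.45, 7.27, 8.11 and 7.36 CPM with serum and 14.7, 11.7, 16.9 and 11.8 CPM without. The serum libraries were nearly equal and all serum-free libraries were higher, a 1.82-fold rise (log2 fold change 0.87, SE 0.14, adjusted p = 0.00284). *NR1H2*, which encodes LXR beta, had 71.3, 78.7, 74.0 and 101 CPM with serum and 81.4, 83.4, 75.7 and 81.9 CPM without. It was higher without serum in 3 lines and lower in WT4, with a log2 fold change of -0.012 (SE 0.11, adjusted p = 0.95) that changed sign with upper-quartile scaling (0.052). With the block and GC correction together it was lower (-0.20, adjusted p = 0.00137), and 22.1% of its exon length overlaps *NAPSA* on the other strand. The ratio of *NR1H2* to *NR1H3* counts was 9.12 to 13.8 with serum and 4.48 to 7.12 without.

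The efflux transporters, both LXR targets, differed in level and in spread. *ABCG1*, which passes cholesterol to HDL particles, was scarcely expressed, at 19, 59, 11 and 3 counts with serum (0.504, 0.898, 0.257 and 0.106 CPM) and 69, 134, 28 and 85 counts without (1.64, 1.75, 0.719 and 1.51 CPM). It was higher in each line but the groups overlapped, since WT3 without serum was below WT2 with serum (log2 fold change 1.60, SE 0.52, adjusted p = 0.049). It passed in 3 of the 12 fits with a library or line left out. In WT4 the ratio without to with serum was 14.3, with an exact 95% interval of 4.73 to 70.7 that covers counting error only. *ABCA1*, which passes cholesterol to lipid-poor apolipoproteins, had 13.9, 13.2, 18.0 and 25.0 CPM with serum and 16.9, 12.8, 20.9 and 31.7 CPM without. WT4 was highest and WT2 lowest in both conditions, and the gene did not pass with or without the block (log2 fold change 0.24, SE 0.31, adjusted p = 0.62, and 0.20, adjusted p = 0.065 with the block). With GC correction added to the block it was higher (0.25, adjusted p = 0.013). *ABCA1* counts exceeded *ABCG1* counts 14.7 to 237 times with serum and 7.31 to 29.1 times without. *MYLIP*, an LXR target that marks lipoprotein receptors for degradation, had 12.9 to 16.3 CPM with serum and 11.9 to 17.5 CPM without (log2 fold change 0.049, adjusted p = 0.85). *APOE*, an apolipoprotein and LXR target, stood at 0.609 to 1.13 CPM with serum and 0.445 to 1.46 CPM without, and the lines went both ways, 2 up and 2 down (log2 fold change 0.074, SE 0.37, adjusted p = 0.91).

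Levels of different genes were compared as RPKM, CPM divided by the merged exon length in kilobases, with no test. This measure takes the counts to lie on exons, which was not checked. With serum, *EBP* was highest at 36.8 ± 2.66 RPKM (SD, n = 4), followed by *LBR* at 26.8 ± 1.59 and *PMVK* at 26.8 ± 3.24, whose libraries overlapped, and *SCAP* at 21.9 ± 1.48. Without serum, *PMVK* at 29.9 ± 2.29, *EBP* at 26.6 ± 2.31, *SCAP* at 23.6 ± 0.826, *LBR* at 22.8 ± 1.55 and *SREBF1* at 21.1 ± 2.80 headed the list, and the libraries of each overlapped those of the next. *INSIG1* went from 3.92 ± 0.860 to 13.4 ± 3.03 RPKM, or from rank 7659 to rank 3224 among 17425 genes with a known length. The lowest levels were those of *ABCG1* at 0.072 and 0.23 RPKM, *APOE* at 0.40 and 0.42 and *CYP51A1* at 0.78 and 0.88, all under the median of all tested genes, 2.75 RPKM with serum and 2.93 without. Merged exon length counts exons that a cell may not use, and the order changed with the longest transcript in its place. Without serum *EBP* then stood at 41.9 RPKM, *FDFT1* at 39.3, *SREBF1* at 35.5, *SCAP* at 34.9, *LBR* at 34.1 and *NPC2* at 33.3, all above *PMVK* at 29.9.

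**Figure D4:**
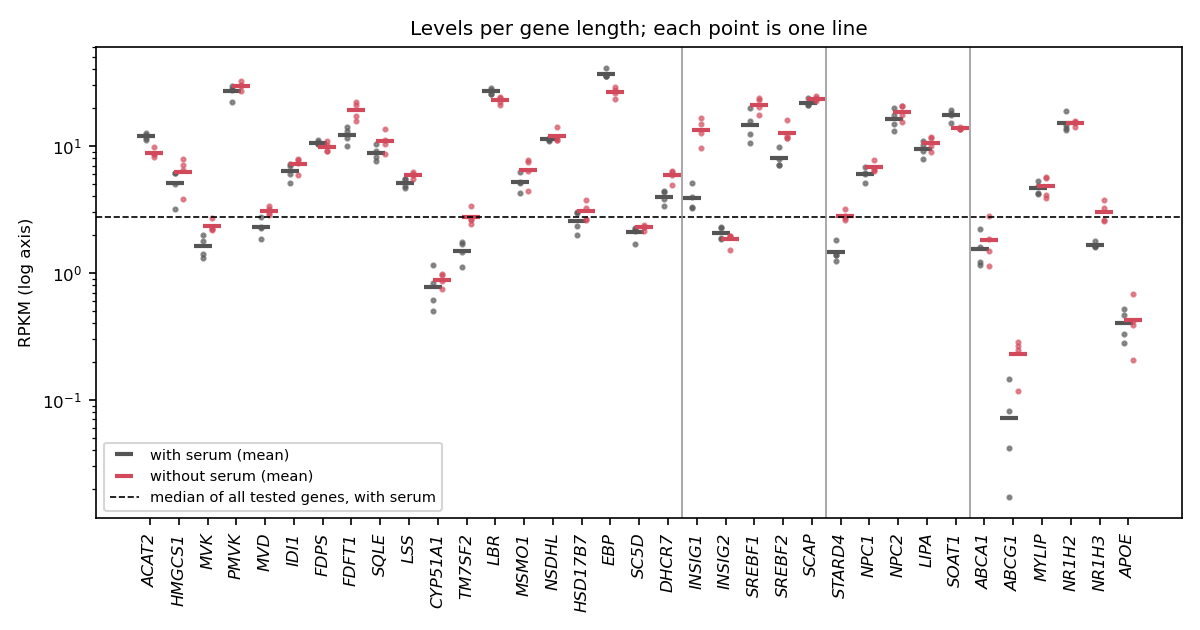
RPKM on a log axis for the 35 genes in order of role, with each point 1 library and bars the mean of 4 libraries with serum (grey) and without (red). *ABCG1* and *APOE* lie far below the dashed median of all tested genes, 2.75 RPKM, and *INSIG1*, *SREBF2*, *STARD4* and *NR1H3* show red bars above grey points.

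Some lines held the extreme value of a gene in both conditions, in places by a small margin. WT3 was the highest with and without serum in *ACAT2*, *SQLE*, *MSMO1*, *HSD17B7*, *INSIG1*, *SREBF2*, *LIPA* and *NR1H3*. WT4 was the lowest of the 4 lines with and without serum in *ACAT2*, *HMGCS1*, *IDI1*, *SQLE*, *LBR*, *MSMO1* and *LIPA* and the highest in *SREBF1*, *SCAP*, *NPC1*, *NPC2* and *ABCA1*. WT2 was the lowest in both conditions in *FDFT1*, *NSDHL*, *DHCR7*, *NPC2*, *ABCA1*, *NR1H3* and *APOE*. Among the genes that were higher without serum in every line, WT4 had the smallest log2 difference in *INSIG1*, *SREBF1*, *SREBF2*, *SCAP*, *MVK*, *MVD*, *MSMO1*, *DHCR7*, *NPC2* and *NR1H3*. These are descriptions of single clones, with no test.

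Other genes of sterol metabolism were counted in 4 further lists, to be read beside the 11.1% of all tested genes that rose and the 14% that fell without the block. Of 9 genes for SREBP processing and sterol-regulated degradation, 3 fell and the others did not pass without the block. *ERLIN1*, part of a complex that binds cholesterol in the endoplasmic reticulum, went from 93.6 ± 4.43 to 69.8 ± 3.15 CPM (log2 fold change -0.42, SE 0.064, adjusted p = 0.00235), and *FAF2*, which helps remove ubiquitylated membrane proteins, from 173 ± 5.43 to 141 ± 5.81 CPM (-0.29, SE 0.059, adjusted p = 0.00693). The third was *TMEM97* (-0.47, adjusted p = 0.0136), which binds NPC1. With the block 1 gene of this list rose and 3 fell, beside 23.2% and 22.4% of all tested genes. Of 9 genes for the branches that lead from isoprenoids to other products, 3 fell, *PDSS1* for coenzyme Q (-0.64, SE 0.10, adjusted p = 0.00287), *NUS1* for dolichol (-0.53, SE 0.13, adjusted p = 0.0147) and *PGGT1B* for protein prenylation (-0.31, adjusted p = 0.0326). The median log2 fold change of this list was -0.25, below that of all genes, and 5 of its genes fell with the block. With the block and GC correction, *PGGT1B* had a log2 fold change of -0.018 and *NUS1* of -0.30. Exons of *TMEM97* and *PDSS1* overlap a gene on the other strand over 12.3% and 10.8% of their length, and *NUS1* has 4 pseudogenes.

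Of 16 lipoprotein receptors and sterol transfer genes, 15 were tested, 4 rose and 1 fell without the block. With the block 6 rose and 3 fell, among them *GRAMD1B* (log2 fold change -0.84, edgeR adjusted p = 3.96e-07 with the block and 0.18 without). *GRAMD1A*, a sterol transfer protein of the endoplasmic reticulum, went from 43.6 ± 1.56 to 59.2 ± 2.96 CPM (log2 fold change 0.44, SE 0.064, adjusted p = 0.00204), and the receptor gene *LRP1* from 70.1 ± 11.8 to 108 ± 9.92 CPM (0.62, SE 0.12, adjusted p = 0.00629). *NCEH1*, a cholesterol ester hydrolase, fell from 27.3 ± 3.07 to 17.2 ± 2.85 CPM (-0.67, SE 0.13, adjusted p = 0.00669). Of 12 genes of LXR partners, targets and oxysterol enzymes, 9 were tested and 3 rose without the block, among them *RXRB*, a partner receptor of LXR, from 29.2 ± 3.49 to 44.0 ± 2.63 CPM (0.60, SE 0.093, adjusted p = 0.00262), and *CYP27A1*, which makes an oxysterol, from 4.78 ± 1.63 to 8.74 ± 2.28 CPM (0.87, SE 0.26, adjusted p = 0.0331). With the block 7 of the 9 rose, among them *RXRG* (1.01, edgeR adjusted p = 2.88e-07 with the block and 0.28 without). With GC correction added to the block 4 rose. With the block and GC correction, the log2 fold change of *GRAMD1A* was 0.21. Over the 4 lists 7 genes rose and 7 fell without the block, beside 11.1% and 14% of all tested genes, and 14 rose and 11 fell with it, beside 23.2% and 22.4%.

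Of the 14 of the 35 genes that passed without the block, 6 passed in all 12 fits that left out 1 library or 1 line: *INSIG1*, *SREBF2*, *STARD4*, *NR1H3*, *TM7SF2* and *EBP*. In the pair of lines WT3 and WT4 alone, an alternative chosen after the share of reads aligned to more than 1 place was seen, edgeR called 0 of the 35 genes without a block, with 11 at an unadjusted p under 0.05. Of all 17743 genes tested in this pair it called 13 higher and 1 lower, with 3254 at an unadjusted p under 0.05. In these lines the log2 fold change was 1.53 for *INSIG1*, 0.64 for *SREBF2*, 0.78 for *STARD4* and -0.57 for *EBP*. The part of multiply aligned reads in the results was not tested further. Upper-quartile scaling called 2508 of all tested genes higher and 1843 lower, against 1957 and 2477 with TMM scaling, and 11 and 3 of the 35 genes. The log2 fold change of tested genes rose with GC content (Spearman's rho 0.36 across 17420 genes, which are not independent), and its part in the results was not tested beyond the corrected fit. Added to the block, the correction moved log2 fold changes both ways. It raised that of *HMGCS1* from 0.29 to 0.49, of *IDI1* from 0.20 to 0.35, of *MSMO1* from 0.31 to 0.54 and of *LIPA* from 0.15 to 0.26. It lowered that of *TM7SF2* from 0.89 to 0.64, of *SREBF2* from 0.67 to 0.53 and of *DHCR7* from 0.57 to 0.41. That of *MVK* went from 0.55 to 0.39 and that of *NR1H3* from 0.85 to 0.74. The lowered genes named here still passed.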

How the data were processed

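RNA depleted of ribosomal RNA was sequenced from 4 clonal A375 lines with and without serum. The deposited values are the authors' unnormalized counts of reads on each gene. The submitters' processing notes name cutadapt, TopHat2 2.0.11, HTSeq and GRCh38, whereas the methods of the study name another build. Neither the annotation release nor the strandedness of counting is given in the sources used here, so overlapping and antisense genes are uncertain.

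Ensembl identifiers gave a symbol for 55604 of 58051 genes. Positions and promoters are from RefSeq (GRCh38.p14), exon lengths and GC content from GENCODE on GRCh37, whose build differs from that of the counts. The test was edgeR's quasi-likelihood test (version 4.0.16, R 4.3.3, robust fit) of serum-free against serum libraries, with TMM scaling and no block, over the 17671 genes that filterByExpr kept, with Benjamini-Hochberg adjusted p under 0.05. Log2 differences within a line used a prior count of 2.

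The line number pairs the libraries, since both came from the same clonal line. Deviations from the condition means correlated at 0.40, 0.59, 0.46 and 0.60 within lines WT1 to WT4 and at no more than 0.13 between lines. The line was fitted as a block in an alternative, also with a lowess correction for GC content. Further alternatives were DESeq2 1.42.0, limma 3.58.1 (voom), scaling by RLE or upper quartiles, an open filter, a minimum of 10 counts in each library, and each library or line left out.

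All 35 genes are named, and of the 4 further lists the 2 genes with the smallest p per list and direction. *TMEM97*, *PGGT1B*, *GRAMD1B* and *RXRG* are outside this rule, named once their values were known. The genes and lists were chosen with earlier results of these data known.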

Additional observations from a re-analysis of the deposited data

Results flagged for a closer look

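In 70 groups of 4 libraries, 1 per gene and condition, 3 libraries stood far from the other 3 by Dixon's test, beside about 3.5 that chance gives. *EBP* in WT4 with serum was at 72.1 CPM, against 62.3, 62.6 and 63.2 CPM in the other lines. *INSIG2* in WT3 without serum was at 6.01 CPM, against 7.56, 7.71 and 7.72 CPM. *SREBF2* in WT3 without serum was at 128 CPM, against 92.2, 93.2 and 95.5 CPM.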

How the results depend on the processing

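With the line as a replicate block, 4106 of all tested genes were higher and 3961 lower, and 19 of the 35 genes were higher, all 19 in the same direction in each line. The synthesis enzymes then held 10 and the uptake and trafficking genes 4 that were higher, and the other sterol lists 14 higher and 11 lower. With the replicate block and GC correction together, 4256 of all tested genes were higher and 3960 lower, 20 of the 35 genes were higher and 5 lower, with 10 synthesis enzymes and 4 uptake and trafficking genes higher and 1 LXR gene lower. Against the block alone, *MVD*, *LSS* and *LBR* were lost, *HSD17B7*, *SC5D* and *ABCA1* were gained as higher and *FDPS* and *NR1H2* as lower. Among the 35 genes the block alone lost no call made without it.

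In lines WT3 and WT4 alone, edgeR called 13 of 17743 tested genes higher and 1 lower, with 3254 at an unadjusted p under 0.05. Of the 35 genes it called 0 higher and 0 lower, with 11 at an unadjusted p under 0.05. This alternative was chosen after seeing the data and leaves 2 libraries per condition.

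With each library or line left out, the counts ran from 620 to 2849 higher and from 969 to 3279 lower over all genes, and from 6 to 12 higher and from 1 to 4 lower among the 35. The 35 held 6 higher and 1 lower without WT1, 8 and 2 without WT2, 6 and 2 without WT3 and 11 and 4 without WT4. Of 18104, 17464, 18050 and 17756 tested genes, the same fits called 620, 800, 705 and 2534 higher and 969, 1175, 1168 and 3097 lower. When 1 library of a line is left out, its condition keeps 3 libraries.

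The direction turned in genes that did not pass without the block over all 8 libraries. With the block and GC correction it turned for *PMVK* (-0.0076), *INSIG2* (0.081), *SCAP* (-0.11) and *APOE* (-0.33). *NR1H2* turned with the block (0.00039), voom (0.0097), upper-quartile scaling (0.052) and at least 10 counts (0.0036), and *APOE* with voom (-0.050). *CYP51A1* turned in lines WT3 and WT4 (-0.13). With a library or line left out the log2 fold change ran from -0.018 to 0.44 for *CYP51A1*, from -0.051 to 0.45 for *ABCA1*, from -0.040 to 0.14 for *MYLIP*, from -0.075 to 0.11 for *NR1H2* and from -0.25 to 0.32 for *APOE*. The cause was not tested. DESeq2, voom and RLE scaling kept the counts of the 35 genes within 1.5 times. Longest transcript length moved 56 of 70 RPKM levels by more than their spread.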
